A study of Homo sapiens with 6 samples.

Results

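The genes considered here are 57 human genes of the cell cycle engine and of the anaphase-promoting complex, a named list out of 19974 protein-coding genes that the RefSeq annotation of GRCh38.p14 places on the autosomes or X. A gene was counted as having a GABPA peak when a listed peak had its summit no more than 1 kb from an end of the annotated gene span, and 11 of the 57 met this in at least 1 library. The peaks come from chromatin immunoprecipitation followed by sequencing (ChIP-seq) of A-375, a standard line of human melanoma cells labelled as skin, with an antibody against GABPA. The 3 ChIP libraries were made from a line with exon 2 of the GABP B1 subunit knocked out and TERT then knocked in, from a line with the ROSA26 locus knocked out, and from parental cells without a knockout. They are called B1 knockout, ROSA26 and parental below. Per the labels, knockouts were grown up as clones from sorted cells, so each knockout library stands for 1 clone, and the B1 knockout cannot be told apart from the TERT knock-in or from that clone. Each condition had 1 ChIP library and 1 input. No test between conditions was therefore possible, and no p-value is given for any difference. GABPA peaks do not measure expression, so the cell type was not checked from them.

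GABP consists of the ETS factor GABPA, which binds DNA at sites with a GGAA core, and of a B subunit that activates transcription and can join GABP units into larger complexes. Cyclins activate the cyclin-dependent kinases (CDKs) that drive the cell cycle, and E2F factors with their DP partners control many cell cycle genes under the restraint of the pocket proteins. The anaphase-promoting complex is a ubiquitin ligase that marks mitotic cyclins and securin for destruction, and so lets sister chromatids part and mitosis end. Promoters of late cell cycle genes often carry a CHR element, and those of genes acting around the start of S phase often carry an E2F site.

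Promoter windows of 7 genes whose summits fell inside the window are shown because the results below set GABP-type letters beside those summits. Each is the RefSeq window of GRCh38.p14 from 250 bases before to 50 bases after an annotated start, written 5′ to 3′ on the gene's strand. Capitals mark CGGAAG or its reverse complement CTTCCG, and in CDC26 they mark GGAAGTG, which was searched after CGGAAG had not been found there. The window of the neighbouring gene PRPF4, which covers the same summits, held 1 CGGAAG.
E2F4 (chr16:67191905-67192204, + strand): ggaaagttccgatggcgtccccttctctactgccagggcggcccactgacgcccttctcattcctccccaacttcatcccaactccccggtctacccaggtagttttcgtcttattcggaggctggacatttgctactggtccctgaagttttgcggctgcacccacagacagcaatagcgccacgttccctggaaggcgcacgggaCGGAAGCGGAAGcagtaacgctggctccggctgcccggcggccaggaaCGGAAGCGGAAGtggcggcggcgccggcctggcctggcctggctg
CDC16 (chr13:114234647-114234946, + strand): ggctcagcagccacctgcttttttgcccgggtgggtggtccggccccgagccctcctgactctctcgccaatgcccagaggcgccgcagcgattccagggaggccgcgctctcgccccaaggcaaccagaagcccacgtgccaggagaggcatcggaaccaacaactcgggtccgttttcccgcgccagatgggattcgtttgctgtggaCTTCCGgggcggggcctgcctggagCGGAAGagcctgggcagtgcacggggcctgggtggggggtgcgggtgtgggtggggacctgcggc
ANAPC15 (chr11:72112646-72112945, − strand): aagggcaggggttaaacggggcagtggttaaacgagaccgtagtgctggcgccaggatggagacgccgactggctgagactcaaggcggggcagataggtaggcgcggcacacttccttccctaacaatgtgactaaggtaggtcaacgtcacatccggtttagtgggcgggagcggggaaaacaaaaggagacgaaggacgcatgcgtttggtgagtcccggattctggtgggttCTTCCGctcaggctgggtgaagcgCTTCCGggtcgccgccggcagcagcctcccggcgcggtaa
ANAPC11 (chr17:81891473-81891772, + strand): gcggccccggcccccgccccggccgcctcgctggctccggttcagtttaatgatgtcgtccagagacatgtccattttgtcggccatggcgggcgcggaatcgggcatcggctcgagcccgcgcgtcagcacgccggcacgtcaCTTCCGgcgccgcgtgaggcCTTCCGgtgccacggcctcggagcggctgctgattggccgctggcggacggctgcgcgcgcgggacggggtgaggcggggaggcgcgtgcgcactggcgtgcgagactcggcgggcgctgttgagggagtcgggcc
CDC26 (chr9:113275523-113275822, − strand): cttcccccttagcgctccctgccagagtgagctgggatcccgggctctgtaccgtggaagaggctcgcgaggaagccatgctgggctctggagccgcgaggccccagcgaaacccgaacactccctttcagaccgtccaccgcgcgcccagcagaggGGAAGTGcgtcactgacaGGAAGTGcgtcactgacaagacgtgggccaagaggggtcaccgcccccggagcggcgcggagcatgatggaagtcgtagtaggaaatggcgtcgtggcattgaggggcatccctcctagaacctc
CDC20 (chr1:43358731-43359030, + strand): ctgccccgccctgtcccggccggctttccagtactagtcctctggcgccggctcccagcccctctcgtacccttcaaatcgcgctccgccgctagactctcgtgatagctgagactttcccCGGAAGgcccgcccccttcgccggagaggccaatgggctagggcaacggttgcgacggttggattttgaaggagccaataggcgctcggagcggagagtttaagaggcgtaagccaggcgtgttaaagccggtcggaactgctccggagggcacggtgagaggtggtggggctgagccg
ANAPC4 (chr4:25377013-25377312, + strand): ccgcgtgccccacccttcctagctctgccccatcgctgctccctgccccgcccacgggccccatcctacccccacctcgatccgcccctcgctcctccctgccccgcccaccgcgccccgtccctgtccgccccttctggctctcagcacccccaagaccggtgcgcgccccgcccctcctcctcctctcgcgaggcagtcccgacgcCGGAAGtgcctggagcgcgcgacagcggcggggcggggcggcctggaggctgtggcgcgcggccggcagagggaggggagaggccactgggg

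In E2F4 the 6 letters occurred 4 times on the same strand, as 2 directly adjoining pairs. Within each pair the matches began 6 bases apart, and the first match of the second pair began 42 bases after the start of the last match of the first pair. CDC16 had 2 matches on opposite strands that began 25 bases apart. ANAPC15 had 2 on the same strand 24 bases apart, and ANAPC11 had 2 on the same strand 20 bases apart. CDC20 and ANAPC4 had 1 match each. CDC26, with no CGGAAG, had a peak in all 3 libraries, as did E2F4, CDC16, ANAPC15 and ANAPC11. CDC20 and ANAPC4, whose windows were added after their values were seen, had no B1 knockout peak. Across every gene marked in both controls, 44.2% of 1602 windows held 2 or more CGGAAG where a B1 knockout peak was listed. Where none was listed, it was 21.7% of 1023 windows. The printed windows were chosen, so their numbers of matches do not show a link with the B1 knockout peak.

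Most of the core cell cycle genes had no GABPA peak near an end. Of the 57 genes, 6 had a peak in the B1 knockout library (10.5%, exact 95% interval 3.96 to 21.5), 11 in ROSA26 and 11 in parental cells (19.3% in each, 10 to 31.9). The background was 9.32% of all protein-coding genes in the B1 knockout, 18.5% in ROSA26 and 15.5% in parental cells, so the list as a whole stood near the level of genes in general. The same 11 genes had a peak in both controls, against 15.3% of all genes, and all 6 genes with a B1 knockout peak were among them. These intervals, like those below, are of the Clopper-Pearson kind and cover counting error only.

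Counts by class rest on few genes, and the shares of all genes given above apply to each of them. The anaphase-promoting complex had a peak at 4 of 14 subunit genes in the B1 knockout (28.6%, 8.39 to 58.1) and at 5 of 14 in each control (35.7%, 12.8 to 64.9). Mitotic genes had 0 of 8 in the B1 knockout, for which the interval reaches 36.9%, and 2 of 8 in each control (25%, 3.19 to 65.1). Among E2F and pocket protein genes, 1 of 12 had a peak in the B1 knockout and 2 of 12 in each control. Among cyclin, kinase and CDK regulator genes the counts were 1 of 23 in the B1 knockout and 2 of 23 in each control. In each library the intervals of the 4 classes overlapped, the intervals of the complex included 9.32% (B1 knockout), 18.5% (ROSA26) and 15.5% (parental), and the higher share of the anaphase-promoting complex was not separated from the others by these counts.

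**Figure D1:**
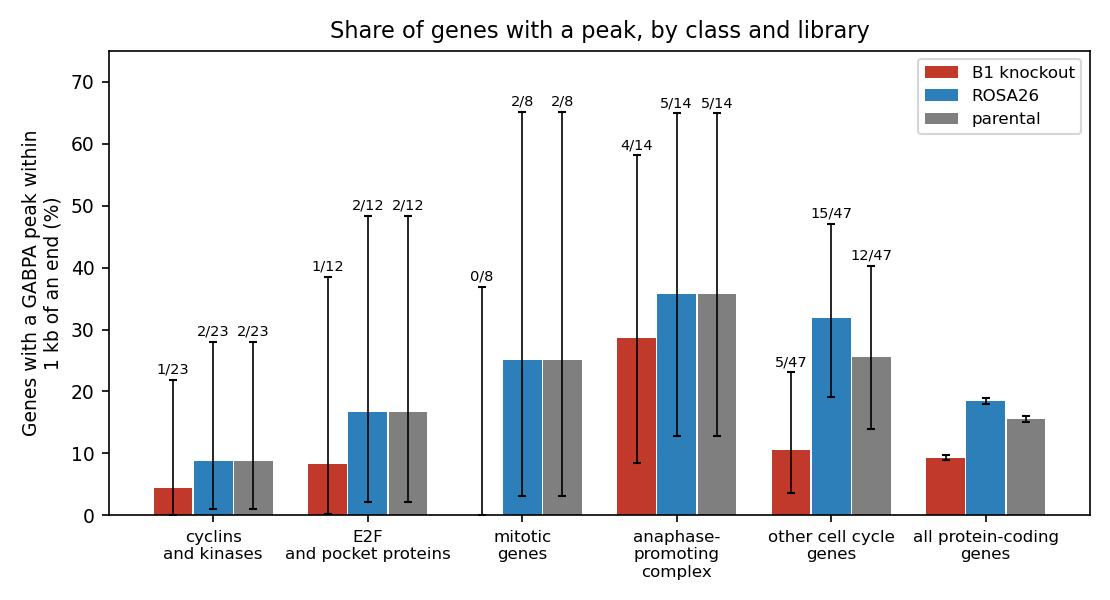
Percentage of genes with a GABPA peak within 1 kb of an end, for the 4 classes, for 47 other cell cycle genes and for all protein-coding genes, in the B1 knockout, ROSA26 and parental libraries. Bars are shares, lines are exact 95% intervals over genes, and fractions above the bars give the counts. The anaphase-promoting complex reached 28.6% in the B1 knockout and 35.7% in each control, and the intervals of the small classes are wide.

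Among the cyclins and kinases, no peak was listed near an end of any of the 8 cyclins (CCNA2, CCNB1, CCNB2, CCND1, CCND2, CCND3, CCNE1, CCNE2), the 4 CDKs (CDK1, CDK2, CDK4, CDK6) or the 4 CDK inhibitors (CDKN1A, CDKN1B, CDKN2A, CDKN2C). The same held for the CDC25 phosphatases (CDC25A, CDC25B, CDC25C), which activate CDKs, and for the kinases WEE1 and PKMYT1, which inhibit CDK1. A gene without a listed peak is below the limit of the peak caller and is not shown to be unbound. Both genes of this class that had a peak encode CKS proteins, small CDK partners that help the kinase recognise its substrates. CKS1B (chromosome 1, 154974681 to 154979251) had a fold enrichment of 3.64 in the B1 knockout, 10.7 in ROSA26 and 10.1 in parental cells. Fold is the authors' value for each peak, the pileup at the summit over the local background, and folds of different libraries are not on a common scale of depth. The −log10 p of the CKS1B peak was 18.9 in the B1 knockout, 198 in ROSA26 and 157 in parental cells. CKS2 (chromosome 9, 89311195 to 89316703) had no B1 knockout peak, and its fold was 6.51 in ROSA26 and 5.39 in parental cells, with a −log10 p of 64.5 in ROSA26 and 33.5 in parental cells. Its summits lay 314 bp before the start in ROSA26 and 395 bp before it in parental cells.

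The E2F and pocket protein class contained the gene with the highest parental fold of all 57. E2F4, which encodes a mainly repressive E2F that works with pocket proteins in resting cells, lies on chromosome 16 from 67192155 to 67198918. Its peak had a fold of 8.52 in the B1 knockout, 11.4 in ROSA26 and 14.6 in parental cells, with summits 16, 21 and 29 bp before the start in the same libraries. The −log10 p was 51.4 in the B1 knockout, 201 in ROSA26 and 184 in parental cells. The 3 summits thus fell within the promoter window printed above. E2F5 (chromosome 8, 85177154 to 85214518), its close relative, had no B1 knockout peak, and folds of 4.94 in ROSA26 and 4.17 in parental cells. Its peaks had a −log10 p of 34.7 in ROSA26 and 19.6 in parental cells, and the summits lay 42 bp (ROSA26) and 113 bp (parental) before the start. No library listed a peak at E2F1, E2F2, E2F3, E2F6, E2F7, E2F8, the DP genes TFDP1 and TFDP2, or the pocket protein genes RBL1 and RBL2.

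No mitotic gene had a B1 knockout peak, and 2 had peaks in the controls. CDC20 (chromosome 1, 43358981 to 43363203), which activates the anaphase-promoting complex and is the target of the spindle checkpoint, had a fold of 6.25 in ROSA26 and 4.11 in parental cells. The CDC20 peaks had a −log10 p of 63.2 in ROSA26 and 32.6 in parental cells, and the summits lay 122 bp (ROSA26) and 109 bp (parental) before the start. TTK (chromosome 6, 80004649 to 80042527), the kinase that starts spindle checkpoint signalling, had a fold of 3.11 in ROSA26 and 3.87 in parental cells. For TTK the −log10 p was 14.6 in ROSA26 and 17 in parental cells, with summits 173 bp (ROSA26) and 145 bp (parental) outside the span. The kinase genes PLK1, AURKA and AURKB and the checkpoint genes BUB1, BUB1B and MAD2L1 had no listed peak in any library.

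Genes for subunits from different parts of the anaphase-promoting complex had a listed peak. At CDC26 and ANAPC11 a neighbouring gene's end was nearer to the summit, as given below. CDC16 (chromosome 13, 114234897 to 114272723) encodes a subunit of the scaffold built from tetratricopeptide repeats, and its peak had a fold of 12.8 in the B1 knockout, 12.1 in ROSA26 and 12.3 in parental cells. Its −log10 p was 108 in the B1 knockout, 194 in ROSA26 and 184 in parental cells, and the summits lay 58, 44 and 33 bp before the start in these libraries. CDC16 was the strongest of the 6 by fold in the B1 knockout. CDC26 (chromosome 9, 113266992 to 113275572) encodes the small subunit that stabilises CDC16, with folds of 5.37 in the B1 knockout, 7.39 in ROSA26 and 7.92 in parental cells. At CDC26 the −log10 p was 30.7 in the B1 knockout, 111 in ROSA26 and 77.6 in parental cells. Of the genes for other repeat proteins of this scaffold, CDC23, CDC27 and ANAPC7 had no listed peak. ANAPC11 (chromosome 17, 81890790 to 81900533) encodes the RING subunit that recruits the ubiquitin-carrying enzyme, with folds of 6.36 in the B1 knockout, 9.06 in ROSA26 and 6.12 in parental cells. Its −log10 p was 35.3 in the B1 knockout, 92.9 in ROSA26 and 45.1 in parental cells. ANAPC2, which encodes the cullin-like partner of ANAPC11, had none.

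ANAPC15 (chromosome 11, 72106372 to 72112780) encodes a subunit needed for release of the complex from the spindle checkpoint. Its peak had a fold of 9.16 in the B1 knockout, 12.7 in ROSA26 and 11.7 in parental cells. ANAPC15 had a −log10 p of 83 in the B1 knockout, 205 in ROSA26 and 172 in parental cells, with summits 63, 77 and 81 bp inside the span in these libraries. ANAPC4 (chromosome 4, 25377263 to 25418498), a subunit of the platform, was the member of the complex with control peaks and no B1 knockout peak, with folds of 4.18 in ROSA26 and 2.98 in parental cells. Its −log10 p was 26.5 in ROSA26 and 13.9 in parental cells, with summits 34 bp (ROSA26) and 39 bp (parental) before the start. Its parental fold was the lowest of all 11 genes. No peak near an end was listed at ANAPC1, ANAPC5, ANAPC10, ANAPC13 or ANAPC16.

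**Figure D2:**
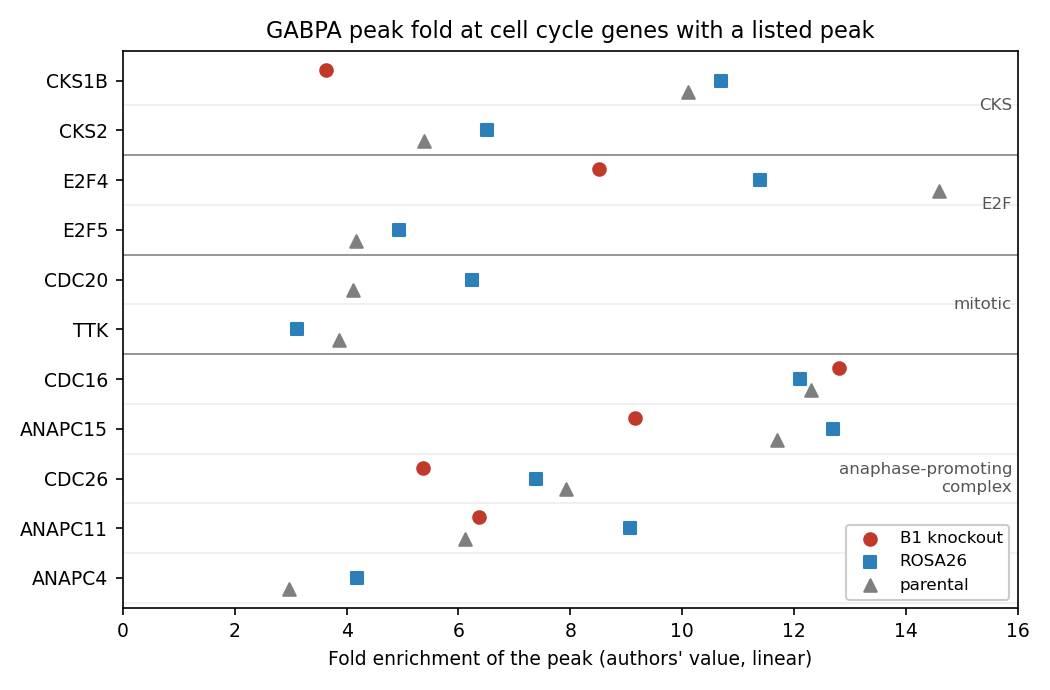
Fold enrichment of the peak near each of the 11 genes with a listed peak, with B1 knockout, ROSA26 and parental values drawn from top to bottom within each gene. Each point is 1 peak of 1 library, and a missing point means that no peak was listed. CKS1B stands at 3.64 in the B1 knockout against 10.7 in ROSA26 and 10.1 in parental cells, whereas CDC16 stands at 12.8 in the B1 knockout, 12.1 in ROSA26 and 12.3 in parental cells.

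The genes with a B1 knockout peak were those with the higher folds in the controls. The 6 genes with a B1 knockout peak had parental folds from 6.12 (ANAPC11) to 14.6 (E2F4), and the 5 without had folds from 2.98 (ANAPC4) to 5.39 (CKS2). In ROSA26 the 6 ranged from 7.39 (CDC26) to 12.7 (ANAPC15), and the 5 from 3.11 (TTK) to 6.51 (CKS2). By reads at the parental summit the ranges overlapped, since CDC20, without a B1 knockout peak, had 123 reads (102 to 147, exact Poisson) and ANAPC11, with one, had 113 (93.1 to 136). A B1 knockout peak was listed at 6 of the 11 (54.5%, 23.4 to 83.3), against 60.4% of the 3063 genes in the annotation that both controls marked, and was not listed at 5 of the 11 (45.5%), against 39.6%. The 4 equal bins of parental fold over those 3063 genes had shares of 8.36% (6.49 to 10.5), 48.3% (44.7 to 51.9), 87.3% (84.8 to 89.6) and 97.8% (96.5 to 98.7), from weakest to strongest. The weakest bin, up to a fold of 4.72, held E2F5, CDC20, TTK and ANAPC4, none of them with a B1 knockout peak. CKS2 and ANAPC11 fell in the second bin, CDC26 and CKS1B in the third, and E2F4, CDC16 and ANAPC15 in the fourth. Summed over the bins of the 11 genes, these shares come to 5.98 genes, and 6 were observed.

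The median parental fold was 7.92 for the 5 genes of the complex with control peaks and 4.78 for the 6 others pooled, beside 7.08 for all genes marked in both controls. By class it was 9.38 for the 2 E2F genes (E2F4 and E2F5), 7.74 for the 2 CKS genes and 3.99 for the 2 mitotic genes (CDC20 and TTK). Within the complex 4 of the 5 genes with control peaks had a B1 knockout peak (80%, 28.4 to 99.5), where the bin shares add up to 3.4. In the other 3 classes together it was 2 of 6 (33.3%, 4.33 to 77.7), where they add up to 2.58. The intervals overlapped, and a difference between the complex and the other classes was not detectable with these numbers of genes.

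**Figure D3:**
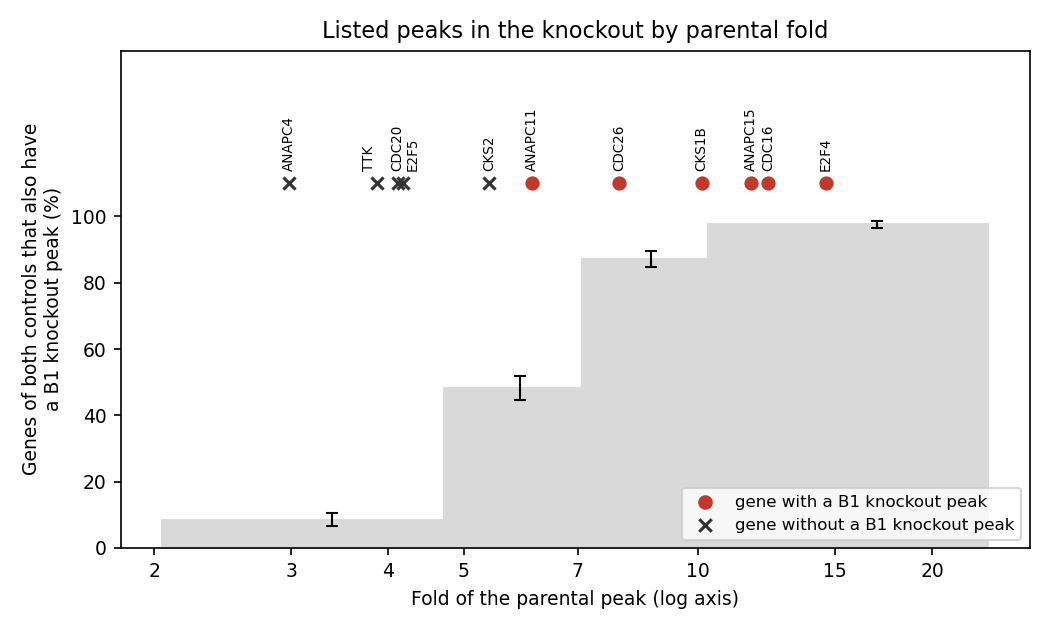
Percentage of genes marked in both controls that also had a B1 knockout peak, in 4 equal bins of parental fold (grey blocks, with exact 95% intervals at their centres), over 3063 genes. Symbols above the blocks mark the parental fold of the 11 cell cycle genes and are placed at 1 height. The 6 filled circles lie at folds of 6.12 and above, and the 5 crosses at 5.39 and below.

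The B1 knockout library had the lowest background. The reads under each summit and in its background were recovered from the fold and the p-value, and the most frequent background, which grows with read depth and fragment length, was 9.86 reads in the B1 knockout, 14.2 in ROSA26 and 15.4 in parental cells. The lists held 1660 B1 knockout, 3857 ROSA26 and 3024 parental peaks. Scaled to the background of the B1 knockout, the control peaks of the 5 genes without a B1 knockout peak had a −log10 p of 9.48 (TTK), 17 (ANAPC4), 22.4 (E2F5), 40.6 (CDC20) and 41.6 (CKS2) from ROSA26. From the parental peaks the values were 12.1 (TTK), 10.0 (ANAPC4), 14 (E2F5), 22.8 (CDC20) and 23.6 (CKS2). The lowest −log10 p in the B1 knockout list was 4.74 and the median 34.2. All 5 therefore passed the lowest listed value after scaling. Over the 1851 genes with a peak in all 3 libraries, the median ratio of B1 knockout to control summit reads was 0.401 (ROSA26) and 0.463 (parental). The ratios of background reads were higher, at 0.694 (ROSA26) and 0.64 (parental). Passing the lowest value after scaling to the background therefore does not show that a peak was to be expected. Of all genes whose scaled parental value lay between 10 and 20, 8.72% had a B1 knockout peak, and between 20 and 40 it was 40.6%. By ROSA26 the shares were 20.7% between 20 and 40 and 65.5% between 40 and 80. Missing B1 knockout peaks at such values were common over all genes. CDC20 and CKS2 stood at the lower edge of the ROSA26 range from 40 to 80, and by ROSA26 fold they fell in the second of 4 equal bins, where 47.4% of all genes had a B1 knockout peak. The part of read depth in the missing peaks was not tested beyond this scaling.

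Among the 6 cell cycle genes with a peak in all 3 libraries, CKS1B stood lowest in the B1 knockout for its control strength. CKS1B had 73 reads at the summit in the B1 knockout (exact Poisson 95% interval 57.2 to 91.8), 302 in ROSA26 (269 to 338) and 286 in parental cells (254 to 321). The 255 other genes with parental reads within 10% of that value had a median of 127 reads in the B1 knockout with 10th and 90th percentiles of 88 and 175, and 6 of the 255 had fewer than CKS1B. Beside the 302 genes of like ROSA26 reads, 14 had fewer. In order of fold among the 6 genes, CKS1B was the fourth in both controls and the last in the B1 knockout. The B1 knockout peak was also narrow, at 363 bp, against 859 bp in ROSA26 and 786 bp in parental cells.

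The other 5 genes were set beside genes of like control reads in the same way. Only genes with a B1 knockout peak could enter, so E2F5, CKS2, CDC20, TTK and ANAPC4 are not among them. E2F4 had 93 reads in the B1 knockout (75.1 to 114), 293 in ROSA26 (260 to 329) and 270 in parental cells (239 to 304). Of 292 genes with like parental reads, 15.8% had fewer B1 knockout reads, and their median was 121 with 10th and 90th percentiles of 85 and 166. E2F4 thus lay below the median and inside these percentiles. CDC16 had 155 reads in the B1 knockout (132 to 181), 274 in ROSA26 (243 to 308) and 298 in parental cells (265 to 334), where 65.6% of 227 like genes had fewer B1 knockout reads. ANAPC15 had 147 reads in the B1 knockout (124 to 173), 281 in ROSA26 (249 to 316) and 285 in parental cells (253 to 320). Of 260 like genes 63.1% had fewer than ANAPC15.

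CDC26 had 80 reads in the B1 knockout (63.4 to 99.6), 215 in ROSA26 (187 to 246) and 163 in parental cells (139 to 190), with 68.3% of 309 like genes below it. ANAPC11 had 79 reads in the B1 knockout (62.5 to 98.5), 153 in ROSA26 (130 to 179) and 113 in parental cells (93.1 to 136), and 96.9% of 129 like genes had fewer. Over the 4 subunit genes the position among like genes ran from 63.1% to 96.9% by parental reads, whereas CKS1B stood at 2.35% and E2F4 at 15.8%. By ROSA26 reads the 4 ran from 47.2% (CDC26) to 90.2% (CDC16), with CKS1B at 4.64% and E2F4 at 20.1%. At CKS1B, CDC26 and ANAPC11 a neighbouring gene's end was nearer to the summit, as given below. The percentages are positions among genes of single libraries, carry no replicate error and are no test between classes.

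**Figure D4:**
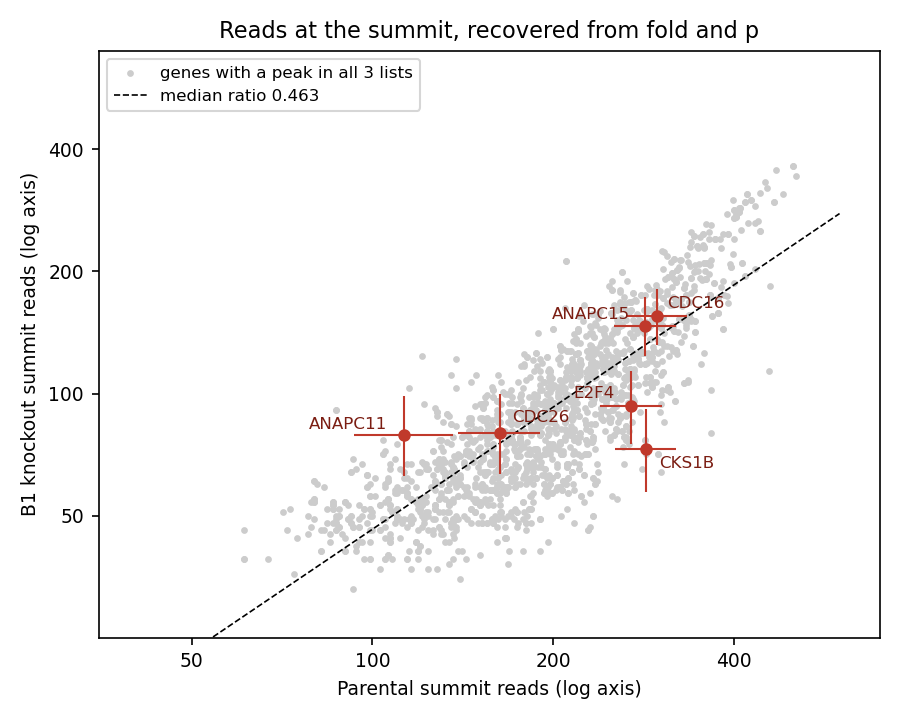
Reads at the summit in the B1 knockout against reads in the parental library, both on log axes, for 1851 genes with a peak in all 3 libraries (grey) and the 6 cell cycle genes among them (red, with exact Poisson 95% intervals). The dashed line has the median ratio of 0.463, and the ratio of background reads was 0.64. CKS1B, with 73 B1 knockout reads against 286 parental reads, lies at the lower edge of the cloud, and ANAPC11, with 79 B1 knockout reads against 113 parental reads, at its upper edge.

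At 3 of the genes the summit was shared with a neighbouring gene, and the peak cannot be assigned to the cell cycle gene alone. In CKS1B the summit lay 481 bp before the gene in the B1 knockout and 176 bp inside SHC1, an adaptor protein gene. In CDC26 it lay 71 bp from the start of CDC26 and 15 bp from PRPF4, a splicing factor gene, in the B1 knockout. In ANAPC11 it lay 925 bp inside the outermost end in the B1 knockout, 2 bp from an internal annotated start, and 128 bp from ALYREF, an mRNA export factor gene. At all 3 genes the neighbour's end was the nearer one in each library. No further protein-coding gene end lay within 1 kb of the summit at the other 8 genes. Counted for the nearest gene end alone, 3 genes (E2F4, ANAPC15 and CDC16) had a peak in the B1 knockout, and 8 had one in each control. Under that rule 7.15% of all genes had a peak in the B1 knockout, 14.6% in ROSA26 and 12.2% in parental cells, and 57.8% of those marked in both controls had a B1 knockout peak, against 3 of the 8. By class, these were 2 of 3 genes of the anaphase-promoting complex and 1 of 5 other members.

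The distance limit separated ANAPC11 from ANAPC5. At ANAPC11 the summits lay 925 bp (B1 knockout), 937 bp (ROSA26) and 958 bp (parental) inside the span, just within the limit. ANAPC5 (chromosome 12, 121308245 to 121354209), which encodes a platform subunit, had a summit in each library that lay 1628 bp (B1 knockout), 1627 bp (ROSA26) and 1700 bp (parental) inside its span. These summits were 170 bp (B1 knockout), 171 bp (ROSA26) and 98 bp (parental) before a start that the promoter table lists. The fold was 6.25 in the B1 knockout, 8.55 in ROSA26 and 6.8 in parental cells. Counting starts of that table instead of span ends, 5 of 6 genes of the complex with control peaks and 2 of 4 other members had a B1 knockout peak, against 61% of all genes under the same rule. At CDK4 the nearest summit lay 2420 bp outside in ROSA26 and 2377 bp outside in parental cells, close to an end of TSPAN31. At CKS2 a second summit, 1734 bp beyond its far end in the B1 knockout, was listed in all 3 libraries and lay near SECISBP2.

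GABP-type letters were found in promoters of genes with a peak near an end and, at lower shares, in promoters of the other genes. RefSeq windows were matched for 47 of the 57 genes, and CCND1, CCND2, CCNE2, CDK2, E2F5, E2F8, TTK, AURKA, WEE1 and PKMYT1 were not matched. The ETS letters CCGGAAG, read on both strands, occurred in 5 of the 9 windows of genes with control peaks (55.6%, 21.2 to 86.3) and in 4 of the 38 others (10.5%, 2.94 to 24.8). The corresponding shares were 55.4% of 2625 windows over all genes marked in both controls, 5.5% of 12638 of genes with no peak, and 14.6% of all 15813. The shorter CGGAAG, which the first motif contains, occurred in 7 of the 9 (77.8%, 40 to 97.2) and in 8 of the 38 (21.1%, 9.55 to 37.3). Over all genes its shares were 72.7% of those marked in both controls, 15.3% of those with no peak and 26% of all windows. GGAAGTG, which can overlap either of these, occurred in 6 of the 9 (66.7%, 29.9 to 92.5) and in 6 of the 38 (15.8%, 6.02 to 31.3). The 6 of the 9 include CDC26, where the absence of CGGAAG had led to this search, so their share is not independent of that choice. They also include CKS1B, whose summits lie outside its window. Over all genes the shares of GGAAGTG were 37.2% of those marked in both controls, 8.07% of those with no peak and 13.3% of all windows. The 38 windows include that of ANAPC5, which holds the summits of its peak farther than 1 kb from an end and none of these letters. Among genes with no listed peak near an end, CCNB1, E2F7, AURKB and CDC27 had 1 CCGGAAG each. CCNA2, CDC25B, ANAPC1 and ANAPC2 had CGGAAG without the longer form, and CCND3, CDKN1A, CDC25B, BUB1, BUB1B and MAD2L1 had GGAAGTG. A match of letters is a description of the window and does not show a binding site.

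Distances from summits to letters were read at the 9 genes with a window. At ANAPC4 the centre of CCGGAAG was 6 bp from the ROSA26 summit and 1 bp from the parental one. At CDC20 it was 5 bp from the ROSA26 summit and 18 bp from the parental one. At CDC16 it was 21 bp from the summit in the B1 knockout, 7 bp in ROSA26 and 4 bp in parental cells. At ANAPC15 it was 35 bp from the summit in the B1 knockout, 21 bp in ROSA26 and 17 bp in parental cells. The nearer CGGAAG of ANAPC15 was 11 bp (B1 knockout), 3 bp (ROSA26) and 7 bp (parental) away. The B1 knockout summit of E2F4 fell between the adjoining pairs of CGGAAG printed above, with the nearest match centred 19 bp away. At CDC26 the summits lay 1, 7 and 5 bp (B1 knockout, ROSA26 and parental) from the centre of one of the 2 GGAAGTG matches. These letters were searched only after CGGAAG had not been found there. At ANAPC11 the nearer CCGGAAG was 75 bp from the B1 knockout summit, 87 bp from the ROSA26 one and 108 bp from the parental one. A window of ALYREF over the same summits held 3 CGGAAG matches, against 2 in the window printed. The additional match reaches past the end of the printed window that is nearer to the summits, so it can be nearer to them than the distances given. Its exact distance was not measured. At CKS1B and CKS2 the summits fell outside the windows.

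**Figure D5:**
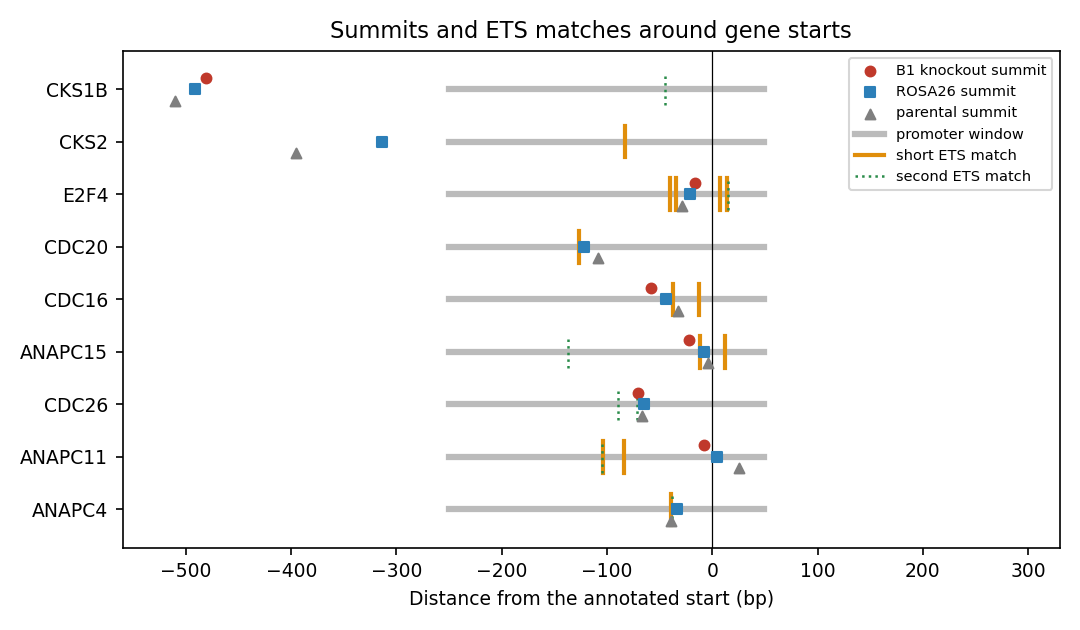
Position of peak summits (symbols, by library) and of ETS letters (vertical lines) relative to the annotated start at the 9 genes with control peaks and a RefSeq window, in bp on the gene's strand. Grey bars span the window, solid orange lines (short ETS match) mark CGGAAG and dotted green lines (second ETS match) mark GGAAGTG, on either strand. Summits lie inside the window at 7 genes and before it at CKS1B and CKS2.

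Letters of other cell cycle regulators were counted in the same windows. E2F letters (TTTGGCGC or TTTCCCGC, both strands) occurred in 7 of the 47 windows (14.9%, 6.2 to 28.3), against 3.11% of all windows. They were in 6 of the 38 windows of genes without a peak near an end and in 1 of the 9 others, CDC16. In the E2F and pocket protein class they were found in 4 of 10 windows, those of E2F1, E2F2, E2F3 and RBL1. CHR letters (TTTGAA or TTCGAA, both strands) occurred in 13 of the 47 (27.7%, 15.6 to 42.6), namely in 10 of the 38 and in 3 of the 9, against 13.5% of all windows. Among mitotic genes 5 of 6 windows held them (CDC20, PLK1, BUB1, BUB1B and MAD2L1), and in the anaphase-promoting complex 2 of 14 (ANAPC1 and ANAPC7). The numbers of windows are small, and no test was made.

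Of 47 other cell cycle genes, 5 had a peak in the B1 knockout (10.6%, 3.55 to 23.1), 15 in ROSA26 (31.9%, 19.1 to 47.1) and 12 in parental cells (25.5%, 13.9 to 40.3), against 9.32%, 18.5% and 15.5% of all genes in the same libraries. All 12 were also in ROSA26, and 5 of them had a B1 knockout peak (41.7%, 15.2 to 72.3), against 60.4% of all genes marked in both controls. The highest parental fold was at TRIP13, an ATPase that disassembles spindle checkpoint complexes, with 16.2 in the B1 knockout, 21.5 in ROSA26 and 13.1 in parental cells; its summit lay near BRD9 as well. RBBP4, a histone-binding protein of the MuvB complex, had 6.64 in the B1 knockout, 9.43 in ROSA26 and 9.14 in parental cells, with an end of ZBTB8OS within the same 1 kb. The summits at TRIP13 and RBBP4 were thus shared with a neighbour. INCENP, the scaffold of the chromosomal passenger complex, had 4.52 in the B1 knockout, 11 in ROSA26 and 8.27 in parental cells. BUB3, a checkpoint protein, had 3.35 in the B1 knockout, 9.37 in ROSA26 and 7.88 in parental cells. RB1, which encodes the third pocket protein and founder of that family, had no B1 knockout peak and folds of 7.21 in ROSA26 and 6.46 in parental cells. CDK7, the CDK-activating kinase, had no B1 knockout peak and folds of 6.61 in ROSA26 and 5.81 in parental cells. FZR1, the second activator of the anaphase-promoting complex, named after its values were seen, likewise had no B1 knockout peak and folds of 4.35 in ROSA26 and 4.65 in parental cells. LIN37, also named after its values were seen, had a B1 knockout peak at a lower parental fold than RB1 and CDK7. Its folds were 2.89 in the B1 knockout, 8.39 in ROSA26 and 5.62 in parental cells, and an end of PSENEN lay within the same 1 kb. Both activator genes, CDC20 and FZR1, had parental folds in the weakest of the 4 bins, in which 8.36% of all genes had a B1 knockout peak. By ROSA26 fold FZR1 stayed in the weakest bin, but CDC20 fell in the second, in which 47.4% had one.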

How the data were processed

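GABPA ChIP-seq peak lists of 3 A-375 libraries were used, and the 3 inputs were not used here. Reads were processed with Bowtie2, SAMtools and MACS2 on hg38, per the submitters' processing notes; their versions and thresholds: not given in the sources used here. Each ChIP sample has a list of its own, so the authors called peaks per sample. The deposited fold is a ratio of summit pileup to local background, the deposited −log10 p-value and q-value describe the summit, and the deposited score is 10 times the −log10 q-value without decimals.

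The MACS2 Poisson formula (scipy 1.17.1) was solved for the reads at each summit. All 1660 B1 knockout, 3857 ROSA26 and 3024 parental peaks gave whole reads within 0.1. Control peaks were scaled by recomputing −log10 p at the B1 knockout background. On simulated lists of 299, 298 and 299 peaks in that order, 299, 297 and 299 were recovered.

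The genes, classes and lists were chosen with earlier results of these data known. Every gene with a peak is named. Of the windows printed, CDC20 and ANAPC4 were added after their values were seen, in place of CKS1B, whose summit lies outside its window. For genes with several windows the one nearest the summit was used, or the outermost start where there was no peak, and 12.8% of all 22156 windows held CCGGAAG. Alternatives were 500 bp and 2 kb, the whole gene, the nearest gene, the gene start, equal list lengths, a −log10 q of at least 10, 2 overlap rules, CDC25 genes, WEE1 and PKMYT1 as mitotic genes, bins by ROSA26 fold, and other letters.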

Additional observations from a re-analysis of the deposited data

How the results depend on the processing

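A count was taken to move when it changed by more than 1.5 times, and a bin share when it left its exact interval. Of 52 recomputed values 47 did not move and 5 did. The rule compares counts and not shares. With equal list lengths the count of control-marked genes with a B1 knockout peak therefore did not move, although it went from 6 of 11 to 5 of 5. Counts by gene start covered only genes with a matched window. Of the 47, 12 are class counts with CDC25A, CDC25B, CDC25C, WEE1 and PKMYT1 regrouped, which could not change because none of these genes has a listed peak. Counting each summit for the nearest gene end alone left 3 genes with a B1 knockout peak, all 3 among the 8 with a peak in both controls, against 57.8% of all such genes. With every list cut to the 1660 strongest peaks, 6 genes had a ROSA26 peak and 5 a parental peak, against 9.46% (ROSA26) and 9.5% (parental) of all genes. All 5 genes with a peak in both controls then also had a B1 knockout peak, against 89.0% of all such genes. The shorter lists by construction left out the weaker control peaks. With CGGAAG in place of CCGGAAG, 15 of 47 windows held the letters. The count in all 3 libraries was 5 of 11 when the overlap had to cover 50% of the parental peak. Within 2 kb it was 8 of 12, against 60.2% of all genes with a peak in both controls under that limit. There ANAPC5 joins, and CKS2 counts through the summit near SECISBP2. The starts of the promoter table and GGAAGTG were alternatives chosen after seeing the data. No paired analysis was possible because each condition has 1 library. With 1 library per condition the spread between replicates is unknown, and a peak below the caller's limit in the B1 knockout, the library with the lowest background, is not shown to be absent.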
